A study of Rattus norvegicus with 16 samples.

Results

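The nuclear genes that encode the subunits of the oxidative phosphorylation complexes were followed in rat liver after diets with 3 compounds that activate the retinoid X receptor (RXR). A gene was taken when its symbol in the array's probe table began with Nduf, Uqcr, Atp5 or Cox4 to Cox8, was Sdha, Sdhb, Sdhc or Sdhd, or was Cyc1, and 72 genes met this rule. Of these, 66 had at least 1 probe set bright enough to be kept, which took a 16-array mean of log2 6.01 or more, the 75th percentile, among 12156 genes measured in all. The members are 25 subunits of complex I, 4 of complex II, 7 of complex III, 11 of complex IV and 15 of complex V, and 4 genes that share the prefixes and are no subunits. Those 4 are Ndufaf2, a complex I assembly factor, Dmac2 and Dmac2l (named Atp5sl and Atp5s on the array) and Emc8 (named Cox4nb), a component of a membrane protein insertion complex of the endoplasmic reticulum. The other 6 genes of the rule, Ndufa12, Uqcrb, Cox4i2, Cox8b, Cox8c and Cox6c-ps1, had no probe set above the threshold and were not tested. Cox8c lay just outside, with its brightest probe set at 5.94, and Dmac2l (6.44) and Ndufc1 (6.63) lay just inside.

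Livers came from female Sprague-Dawley rats dissected at an age of 5 weeks, and RNA was hybridised to Affymetrix exon arrays, 1 array per liver sample and 4 arrays per diet. All diets were a Teklad mash, which the labels mark with 4%. The MeUAB30 diet held 4-methyl-UAB30 at 200 ppm, the UAB30 diet held UAB30 at 200 ppm and the Targretin diet held Targretin, the trade name of bexarotene, at 150 ppm, each for 7 days, and the Control diet held no added compound, with no feeding period stated in the labels used here. MeUAB30 differs from UAB30 by a methyl group, as its name states, and these diets share a dose, whereas Targretin was fed at a lower one. The labels give no genotype beyond the strain and no batch. Whether the 4 replicates of a diet are different animals is not stated, and p-values here reflect only how much these samples vary.

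Oxidative phosphorylation couples the oxidation of fuels to the making of ATP in the inner mitochondrial membrane. Complexes I and II pass electrons from NADH and succinate to coenzyme Q, complex III passes them on to cytochrome c and complex IV to oxygen, and complexes I, III and IV pump the protons that drive complex V, the ATP synthase. Most subunits are encoded in the nucleus and the remainder in mitochondrial DNA. The mitochondrial genes are not covered by the symbols used here. RXR acts as the shared partner of receptors that control liver lipid and energy metabolism, and Nrf1, the ETS factor Gabpa and the estrogen-related receptors, helped by the coactivator Ppargc1a, are the textbook regulators of these nuclear genes.

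The arrays had similar medians over all probe sets, 22.2 to 23.8 intensity units, and correlations between arrays of 0.894 to 0.983. Averaged over the genes tested, they differed more. The deviation from the 16-array mean was -0.24 on Targretin replicate 2, -0.14 on Control replicate 3 and up to 0.09 on MeUAB30 replicate 4. Of 8 hepatocyte markers 5 were measured, albumin among them, and none passed the test in any of the 3 comparisons with Control. Their summed intensity, as a log2 value, was 15.84 to 15.91 with MeUAB30, 15.97 to 16.09 with UAB30, 15.78 to 15.93 with Targretin and 15.88 to 16.02 in Control livers. Of the marker lists for Kupffer cells, endothelium, cholangiocytes, muscle and lymphocytes, 19 of 29 genes were measured and none passed. The Kupffer markers summed to 11.5 to 11.7 with MeUAB30 and 10.8 to 11.8 in Control livers. With MeUAB30 5 of the 6 measured had positive estimates (median 0.33), 3 of them at an unadjusted p under 0.05 (23.2% of all genes), with Marco at 0.89 (adjusted p = 0.0685) and Cd68 at 0.69 (adjusted p = 0.155). With UAB30 all 6 were positive (median 0.46), 1 at an unadjusted p under 0.05 (7.83% of all genes). With Targretin 4 were positive (median 0.29) and 2 negative, 1 at an unadjusted p under 0.05 (10.9% of all genes). Of the 5 hepatocyte markers 4 had negative estimates with MeUAB30 (median -0.08, lowest -0.19 for Alb), 0 at an unadjusted p under 0.05. For 3 all MeUAB30 arrays lay below all Control arrays, against 2.78% of all genes. With UAB30 2 were negative and 3 positive (median 0.04). With Targretin 3 were negative and 2 positive (median -0.03, lowest -0.32 for Ahsg), 2 of them lower at an unadjusted p under 0.05 (10.9% of all genes). For 2 all Targretin arrays lay below all Control arrays, against 285 of all 12156 genes. Of the stellate cell markers, 5 of 6 were measured and the retinol esterifying enzyme Lrat passed the test. Its log2 change was 0.84 with MeUAB30 and -0.75 with Targretin, both against Control, and 1.39 for MeUAB30 against UAB30. Of the 5 stellate estimates, 3 were negative with MeUAB30 (median -0.01) and all 5 with Targretin (median -0.34). With Targretin, 3 of them had an unadjusted p under 0.05 in limma (10.9% of all genes). Of the erythroid markers, 3 of 4 were measured and Hbb was lower with Targretin (-0.98). All 3 erythroid estimates with Targretin were negative at an unadjusted p under 0.05, the lowest at -1.15. In whole liver, fewer cells of a type and less RNA per cell cannot be told apart, and the part of other cell types in the results was not tested.

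The subunit genes were higher with MeUAB30 as a group. In the comparison of MeUAB30 with Control livers, 47 of the 66 members (71.2%) rose and 0 fell at a Benjamini-Hochberg adjusted p under 0.05 in limma, whereas 7.88% of all genes tested rose and 2.01% fell. The calls took in 16 of 25 subunits of complex I, 4 of 4 of complex II, 7 of 7 of complex III, 8 of 11 of complex IV, 11 of 15 of complex V and 1 of the 4 genes that are no subunits, Dmac2l. Folds of the called members ran from 1.34 to 2.44 with a median of 1.79, and 9 of them were above 2-fold. At an unadjusted p under 0.05 there were 53 members (23.2% of all genes), all higher (17% of all genes). The median log2 change was 0.76 over the members and 0.06 over all genes, and 64 of 66 members had a positive change, against 59.7% of all genes. Most members are bright on the array, 50 of them being among the 3039 brightest genes, where 17.4% were called higher. All 4 MeUAB30 arrays lay above all 4 Control arrays for 47 members, 46 of which were also called, and 11.7% of all genes had this pattern. Without the pair of arrays with the narrowest intensity range, described further on, 50 members were called higher and 0 lower. In that fit 10.6% of all genes were called higher and 8.83% lower.

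**Figure D1:**
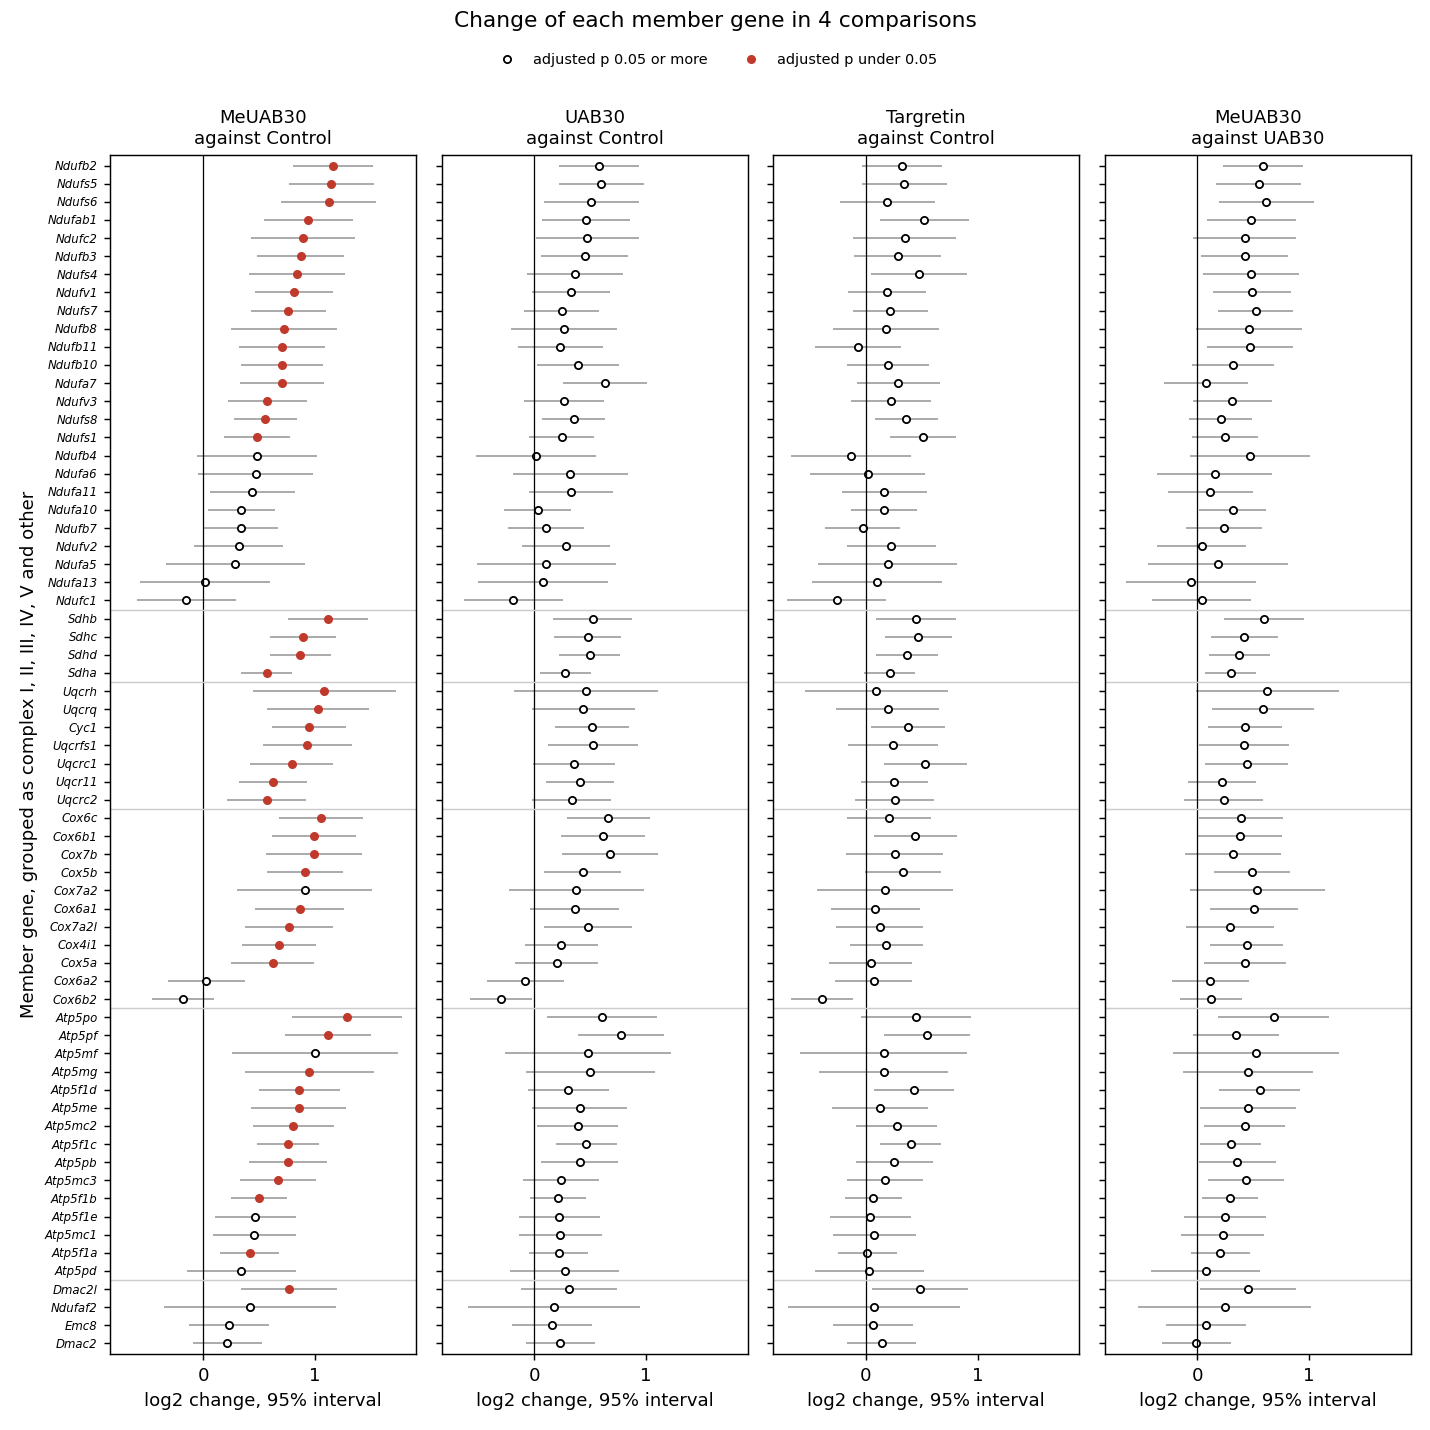
Log2 change of each of the 66 members with its 95% interval in 4 comparisons, grouped by complex, where filled points have an adjusted p under 0.05. In the comparison of MeUAB30 with Control 47 points are filled, all to the right of 0, and in the other 3 comparisons none is.

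The smallest adjusted p-values belonged to Ndufb2, an accessory subunit in the membrane arm of complex I, Sdhd, a membrane anchor of complex II, and Sdhb, the iron-sulfur subunit that hands electrons to that anchor. Ndufb2 read 10.01, 10.46, 10.22 and 10.34 (log2 intensity) on the MeUAB30 arrays, against 8.80, 9.53, 9.14 and 8.90 on the Control arrays. Sdhd read 10.72, 11.12, 10.90 and 10.97 with MeUAB30, against 9.92, 10.34, 10.16 and 9.79 in Control livers. Sdhb read 10.86, 10.98, 10.98 and 11.17 with MeUAB30, against 9.71, 10.29, 9.72 and 9.79 in Control livers. For all 3 genes the lowest MeUAB30 array stood above the highest Control array, and the Control array nearest to the MeUAB30 values was replicate 2. The fitted changes were 1.16 for Ndufb2 (SE 0.17, adjusted p = 0.000396), 0.87 for Sdhd (SE 0.13, adjusted p = 0.000483) and 1.12 for Sdhb (SE 0.17, adjusted p = 0.000534).

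The promoters of these 3 genes are shown because their adjusted p-values were the smallest among members with a promoter entry. Each is the 250 bases before the start of the gene in the RefSeq table of build GRCr8. They lie at chr4:69334057-69334306 (+ strand) for Ndufb2, chr8:59850642-59850891 (- strand) for Sdhd and chr5:158547684-158547933 (+ strand) for Sdhb. Capitals mark matches, on either strand, to the ETS motif CCGGAAG, the Nrf1 core GCATGCGC and the nuclear receptor hexamer AGGTCA.
Ndufb2: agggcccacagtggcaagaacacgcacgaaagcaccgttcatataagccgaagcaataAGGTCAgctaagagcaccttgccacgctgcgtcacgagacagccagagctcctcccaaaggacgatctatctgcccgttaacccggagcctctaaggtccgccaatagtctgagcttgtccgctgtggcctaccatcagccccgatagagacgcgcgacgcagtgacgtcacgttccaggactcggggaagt
Sdhd: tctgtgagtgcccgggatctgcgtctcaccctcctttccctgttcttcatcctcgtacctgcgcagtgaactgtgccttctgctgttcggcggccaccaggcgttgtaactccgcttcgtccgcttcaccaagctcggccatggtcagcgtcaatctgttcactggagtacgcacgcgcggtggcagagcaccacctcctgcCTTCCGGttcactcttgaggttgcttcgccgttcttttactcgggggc
Sdhb: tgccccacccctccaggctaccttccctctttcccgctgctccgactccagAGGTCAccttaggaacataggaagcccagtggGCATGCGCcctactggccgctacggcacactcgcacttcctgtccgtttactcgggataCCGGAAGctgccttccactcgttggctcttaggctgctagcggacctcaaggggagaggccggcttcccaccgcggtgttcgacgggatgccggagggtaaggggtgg
Ndufb2 held the hexamer from base -192 to -187, Sdhd an ETS match from -48 to -42 on the reverse strand, and Sdhb the hexamer from -199 to -194, the Nrf1 core from -167 to -160 and an ETS match from -108 to -102, counted back from the start.

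A promoter entry was found for 60 of the 66 members. The ETS motif CCGGAAG occurred in 17 of them (28.3%), against 7.74% of all 27457 promoters of that length and 12.3% of those of tested genes. The Nrf1 core GCATGCGC occurred in 8 (13.3%) against 2.38% of all promoters and 3.85% of those of tested genes, and the longer Nrf1 palindrome, which is the core with GC before it, in 4 (6.67%) against 0.849% and 1.46%. The estrogen-related receptor motif TCAAGGTCA, which contains the hexamer, occurred in Atp5mc3 alone (1.67% against 0.368% and 0.321%), and the direct repeat of AGGTCA with 1 base between the copies, a form bound by RXR with a partner receptor, in none of the members (0.0546% and 0.0201%). The hexamer AGGTCA itself occurred in 13 members (21.7% against 13.7% and 11.4%), 12 of the 43 that were called with MeUAB30 and 1 of the 17 that were not. The ETS motif occurred in 12 of 43 called and 5 of 17 uncalled members, and the Nrf1 core in 6 and 2 of them. CCAAT was found in 20 members (33.3% against 34.3% and 35.1%) and TATAAA in 3 (5% against 13.1% and 8.54%). Of the 43 called and 17 uncalled members, CCAAT was found in 13 and 7 and TATAAA in 3 and 0. The difference between called and uncalled members was not tested for any motif. These are matches of letters in a window and no measure of binding.

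In complex I, which takes electrons from NADH, both kinds of subunit had calls. Of the 5 measured core subunits, those that carry the flavin and iron-sulfur centres, 4 rose with MeUAB30, namely Ndufv1 (0.81 on the log2 scale), the NADH-binding flavoprotein, and the iron-sulfur proteins Ndufs7 (0.76), Ndufs8 (0.56) and Ndufs1 (0.49). Ndufv2, the remaining one, did not pass, with an estimate of 0.32 (95% interval -0.08 to 0.72). Of the 20 measured supernumerary subunits, which surround the core, 12 rose. Ndufs5, a small subunit on the intermembrane side, read 8.09, 8.53, 8.28 and 8.71 with MeUAB30, against 7.36, 7.55, 6.84 and 7.27 in Control livers. Its arrays did not overlap between the diets, and the change was 1.15 (SE 0.18, adjusted p = 0.0007). Ndufs6 (1.13) and Ndufab1, the mitochondrial acyl carrier protein (0.94), rose as well. The lowest estimate in the complex was that of Ndufc1, which rests on 1 probe set and read 6.63 ± 0.31 with MeUAB30 and 6.78 ± 0.23 in Control livers (SD, n = 4 each). Ndufa13, also on 1 probe set and named there as a pseudogene (Ndufa13-ps), had an estimate of 0.02 (adjusted p = 0.983). The count for complex I was 9 without MeUAB30 replicate 4, 10 without MeUAB30 replicate 2 or 3, and at least 12 without any other of these arrays.

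Complex II, succinate dehydrogenase, is encoded in the nucleus alone, and all of its 4 genes rose. Sdhc, the other membrane anchor, read 10.93, 11.39, 11.14 and 11.32 with MeUAB30, against 10.29, 10.60, 10.19 and 10.11 in Control livers, a change of 0.90 (adjusted p = 0.000726). Sdha, the flavoprotein that oxidises succinate, read 10.97, 11.06, 11.03 and 11.11 with MeUAB30, against 10.43, 10.67, 10.34 and 10.44 in Control livers. Neither gene's arrays overlapped between the diets. The Sdha change of 0.57 (SE 0.11, adjusted p = 0.00294) was the smallest of the complex and Sdhb's the largest. The 4 calls held in each fit that left out 1 MeUAB30 or Control array.

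All 7 measured genes of complex III, the cytochrome bc1 complex, rose with MeUAB30. Cyc1, the cytochrome c1 that passes electrons to cytochrome c, read 9.68, 9.89, 9.89 and 10.05 with MeUAB30, against 8.73, 9.38, 8.81 and 8.79 in Control livers. The groups did not overlap, and 3 of the Control arrays lay between 8.73 and 8.81 with replicate 2 apart from them. The change was 0.95 (SE 0.16, adjusted p = 0.00114). Uqcrfs1, the Rieske iron-sulfur protein, changed by 0.94, Uqcrq by 1.03, Uqcr11 by 0.63 and the core protein Uqcrc1 by 0.79. Uqcrh, the hinge protein, had the highest estimate (1.09, SE 0.30, adjusted p = 0.0304) and Uqcrc2, the other core protein, the lowest (0.57, adjusted p = 0.038). The calls of Uqcrh and Uqcrc2 were lost without MeUAB30 replicate 2, 3 or 4 or Control replicate 1, 3 or 4, with adjusted p up to 0.0941 for Uqcrh and 0.112 for Uqcrc2.

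In complex IV, cytochrome c oxidase, 8 of 11 genes rose, and the tissue forms of a subunit were not all among them. Cox6c read 11.01, 10.998, 10.99 and 11.19 with MeUAB30, against 9.81, 10.43, 10.20 and 9.52 in Control livers. Its MeUAB30 arrays were close together and its Control arrays spread over almost 1 log2 unit without reaching them, and the change was 1.05 (SE 0.18, adjusted p = 0.00133). Cox5b changed by 0.92 (SE 0.16, adjusted p = 0.00191), Cox7b by 0.99, Cox5a by 0.62 and Cox4i1, the form of subunit 4 found in most tissues, by 0.68. The Cox4i1 call was lost with the filter at the 50th percentile and with no filter (adjusted p up to 0.0568). Cox6a1, the form of subunit 6a used in liver, read 11.60, 11.56, 11.51 and 11.58 with MeUAB30, against 10.60, 10.94, 10.70 and 10.54 in Control livers. The change was 0.87 (adjusted p = 0.00754), whereas Cox6a2, the form of heart and skeletal muscle, read 7.14 ± 0.25 with MeUAB30 and 7.11 ± 0.26 in Control livers (SD, n = 4 each). Its interval was -0.31 to 0.38. Cox6b1, on 1 probe set, changed by 0.997 (adjusted p = 0.00197), whereas Cox6b2, its testis form, did not pass, with an estimate of -0.18 (interval -0.46 to 0.10). Cox6a2 and Cox6b2 read near the filter threshold of 6.01. Each kept 2 of its 5 probe sets, the brightest at 7.12 for Cox6a2 and 6.73 for Cox6b2. The brightest were at 11.6 for Cox6a1 and 11.1 for Cox6b1. Changes of dim probe sets are understated on the scale used, so the flat readings cannot show that these forms stayed level. The difference between the isoforms' changes was not tested, and Cox7a1 and Cox8a were not analysed here. Cox7a2l, which takes part in joining complexes III and IV, rose by 0.77, a call lost without Control replicate 4 (adjusted p = 0.0558). Cox7a2, the liver form of subunit 7a, did not pass, with an estimate of 0.91 and an adjusted p of 0.0541. Beside Cox6a2, 5 of 7 skeletal and heart muscle markers were measured, with summed log2 intensities of 9.94 to 10.2 with MeUAB30 and 9.78 to 10.3 in Control livers.

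**Figure D2:**
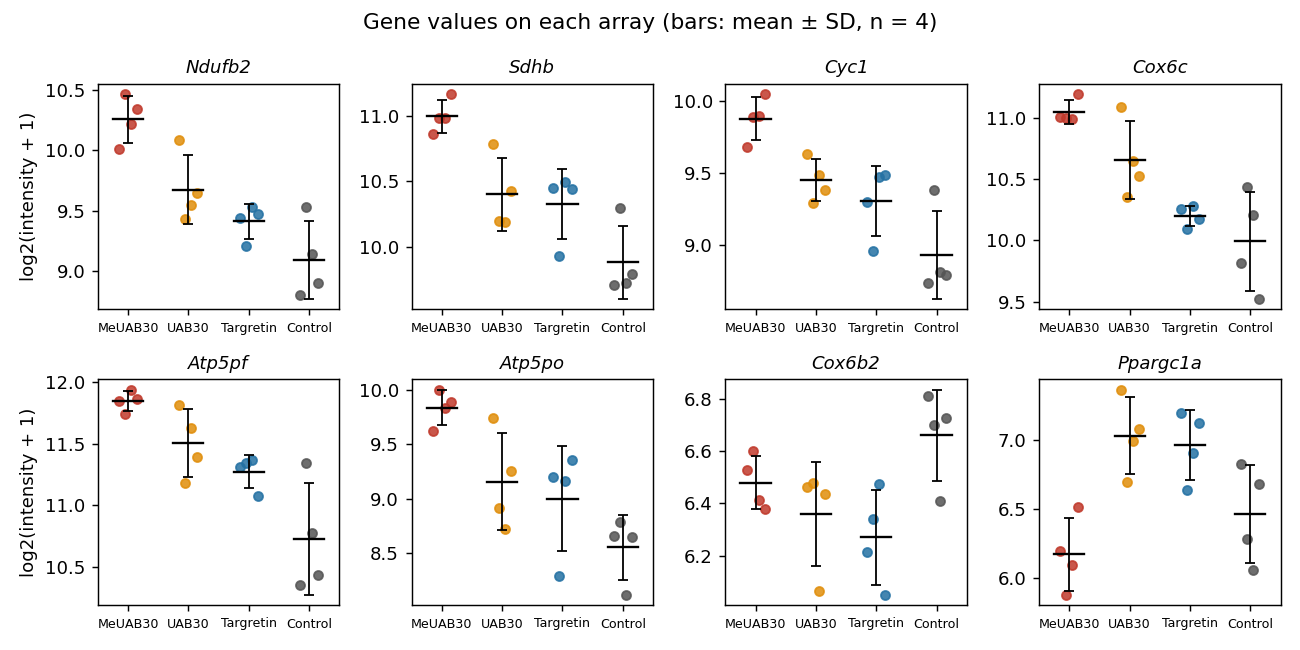
Values of 7 members and of the coactivator gene Ppargc1a on each array, in log2(intensity + 1), with the mean and SD of 4 arrays per diet. The MeUAB30 points lie above every Control point for Ndufb2, Sdhb, Cyc1, Cox6c, Atp5pf and Atp5po, while for Cox6b2 they average 6.48 ± 0.10 with MeUAB30 and 6.66 ± 0.18 in Control livers.

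In complex V, the ATP synthase, 11 of 15 genes rose, in both the catalytic head and the parts that hold it to the membrane. Atp5po, the stator subunit that ties the head to the stalk, had the largest change of all members. It read 9.63, 10.004, 9.83 and 9.89 with MeUAB30, against 8.65, 8.78, 8.11 and 8.65 in Control livers, and the change was 1.29 (2.44-fold, SE 0.23, adjusted p = 0.00226). Atp5pf, coupling factor 6 of the same stalk, read 11.84, 11.74, 11.94 and 11.86 with MeUAB30, against 10.36, 11.35, 10.78 and 10.43 in Control livers. Its MeUAB30 arrays lay close together and above every Control array, and the change was 1.12 (SE 0.18, adjusted p = 0.00104). Of the 5 subunits of the head, 4 rose, namely the catalytic beta subunit Atp5f1b (0.50), alpha, Atp5f1a (0.42), gamma, Atp5f1c (0.76, adjusted p = 0.00147), and delta, Atp5f1d (0.86). Epsilon, Atp5f1e, did not pass, with an estimate of 0.47 (adjusted p = 0.101). The ring that turns in the membrane is built from 1 protein encoded by 3 genes, of which Atp5mc2 (0.81) and Atp5mc3 (0.67) rose, while Atp5mc1 had an estimate of 0.46 without passing (interval 0.09 to 0.83, adjusted p = 0.119). Atp5mf had an estimate of 1.003 with wide error (SE 0.35, adjusted p = 0.0859), and Atp5pd the lowest, 0.34 (interval -0.14 to 0.83). The count for complex V was 6 without Control replicate 4 and 8 to 12 without any other of these arrays; the calls lost among those named were Atp5f1a (without MeUAB30 replicate 2, 3 or 4 or Control replicate 1 or 4, after median centring and with the 2 groups alone, adjusted p up to 0.145), Atp5f1b (without MeUAB30 replicate 2 or Control replicate 4, up to 0.0524) and Atp5mc3 (without MeUAB30 or Control replicate 4, up to 0.0516).

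Of the 4 genes that are no subunits, Dmac2l was called (6.84 ± 0.49 with MeUAB30 and 6.08 ± 0.20 in Control livers, SD, n = 4 each, adjusted p = 0.0236), although 1 MeUAB30 array at 6.21 lay below 1 Control array at 6.26. Its call was lost without MeUAB30 replicate 2 or 4 or Control replicate 3 or 4, and under 3 other alternatives (an adjusted p of up to 0.151). The estimates were 0.22 for Dmac2, 0.23 for Emc8 and 0.42 for Ndufaf2, with intervals that included 0. Of the 19 members not called, 6 had 95% intervals wholly above 0, namely Ndufa10, Ndufa11, Cox7a2, Atp5f1e, Atp5mc1 and Atp5mf, so that missing the threshold did not show them to be alike in both diets. At the level of single probe sets, which mostly lie in single exons, 357 of the 378 kept for the members (94.4%) had a positive change with MeUAB30, 1 to 20 per gene with a median of 5. Of the 62 members with several probe sets, 47 had all of them positive and 14 had both directions. Probe sets of a gene share the same arrays and are no separate samples. By gene, 59.7% of all genes had a positive change. Many subunit genes have processed pseudogene copies in mammals, and whether probe sets also bound these was not tested.

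UAB30 at the same dose gave differences from Control that did not pass the test. Of the 66 members 0 were called higher and 0 lower, where 0.074% of all genes were higher and 0.00823% lower, by limma. At an unadjusted p under 0.05 there were 27 members (7.83% of all genes), 26 of them higher (6.34% of all genes). The median change was 0.35 over the members and 0.05 over all genes, with 63 members positive (61.3% of all genes). Atp5pf had the largest, 0.77 (interval 0.39 to 1.16, adjusted p = 0.195), and its UAB30 arrays read 11.81, 11.18, 11.63 and 11.39. The highest in the other complexes were Ndufa7 (0.63), Sdhb (0.52), Uqcrfs1 (0.52) and Cox7b (0.68), and the lowest were Ndufc1 (-0.19), Sdha (0.28), Uqcrc2 (0.34), Cox6b2 (-0.30) and Atp5f1b (0.21). For Ndufa7, Ndufs5 and Sdhd all UAB30 arrays lay above all Control arrays, a pattern found in 2.58% of all genes. Without Control replicate 2, whose members read high, 2 members were called higher, both in complex V, against 0.288% of all genes in that fit.

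The direct comparison of MeUAB30 with UAB30 at 200 ppm, which differ by the methyl group, left the members undecided one by one. Here 0 members were called higher and 0 lower, against 0.699% of all genes higher and 0.691% lower, by limma. The estimates lay mostly on 1 side, with 64 of 66 positive (53.9% of all genes) and a median of 0.39, against 0.02 over all genes. At an unadjusted p under 0.05 there were 33 members (11.3% of all genes), all higher (6.99% of all genes) with 95% intervals above 0, while the other 33 intervals included 0 and their bounds reached from -0.64 to 1.27. Sdhb had the smallest adjusted p, reading 10.86, 10.98, 10.98 and 11.17 with MeUAB30, against 10.79, 10.20, 10.19 and 10.42 with UAB30. Its arrays did not overlap, and the difference was 0.60 (interval 0.24 to 0.96, adjusted p = 0.106). Atp5po had the largest difference, 0.68 (interval 0.19 to 1.18, adjusted p = 0.211), with UAB30 arrays at 9.74, 8.92, 8.72 and 9.25, of which replicate 1 reached into the MeUAB30 values. Ndufb2 differed by 0.58 (interval 0.23 to 0.94, adjusted p = 0.119), Sdhd by 0.38, Sdha by 0.30 and Cyc1 by 0.43. Ndufa7 differed by 0.07 (interval -0.30 to 0.45) and Dmac2 by -0.01. All MeUAB30 arrays lay above all UAB30 arrays for 9 members, against 4.66% of all genes. Without UAB30 replicate 1, the highest of its diet, 2 members were called higher, against 0.880% of all genes in that fit. Without the pair of arrays with the narrowest range 4 were, against 1.83% of all genes.

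Targretin, at 150 ppm, also gave no call in limma. Of the members 0 were higher and 0 lower, where 1.51% of all genes were higher and 0.666% lower, and 15 members had an unadjusted p under 0.05 (10.9% of all genes), 14 of them higher (6.17% of all genes). The median change was 0.20 over the members, against -0.01 over all genes, and 61 were positive (48.4% of all genes). That median was 0.37 without Targretin replicate 2 and 0.32 without Control replicate 2. Ndufs1 came nearest, with 10.51, 10.33, 10.53 and 10.54 on Targretin arrays, against 10.11, 10.13, 9.58 and 10.04 on Control arrays. These did not overlap, and the change was 0.51 (interval 0.21 to 0.80, adjusted p = 0.0745). The highest changes by complex were those of Ndufab1 (0.52), Sdhc (0.47), Uqcrc1 (0.53), Cox6b1 (0.44) and Atp5pf (0.54), and Dmac2l, which is no subunit, had 0.49. The lowest were Ndufc1 (-0.26), Sdha (0.21), Uqcrh (0.09), Atp5f1a (0.01) and Emc8 (0.06). Cox6b2 was below them all, at -0.39 (interval -0.67 to -0.11, adjusted p = 0.184), reading 6.21, 6.34, 6.48 and 6.05 with Targretin, against 6.81, 6.70, 6.41 and 6.73 in Control livers. For 5 members, Ndufs1, Sdhc, Uqcrc1, Atp5f1d and Dmac2l, all Targretin arrays lay above all Control arrays (2.99% of all genes). Without Control replicate 2, 3 members were called higher, against 1.68% of all genes in that fit. Without Targretin replicate 2, 1 was, against 2.68% of all genes.

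The 3 comparisons with Control share the same 4 Control arrays, and the Targretin dose differs, so the compounds' changes stand side by side only. For Ndufb2 they were 1.16 with MeUAB30, 0.58 with UAB30 and 0.32 with Targretin. For Sdhb they were 1.12, 0.52 and 0.45 in the same order of diets, and for Cox6c 1.05, 0.66 and 0.21. Among the 4 diet means of a member, MeUAB30 was the highest for 60 of 66 and Control the lowest for 60 of 66, whereas over all genes MeUAB30 was highest for 39.7% and Control lowest for 33.2%. A moderated F test over the 4 diets called 33 members, against 7.58% of all genes, and all 33 were among those called for MeUAB30 against Control. That count was 15 without MeUAB30 replicate 2 or 4, 16 without MeUAB30 replicate 3, 18 without Control replicate 4, 19 without Control replicate 1 and 43 without Targretin replicate 2.

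**Figure D3:**
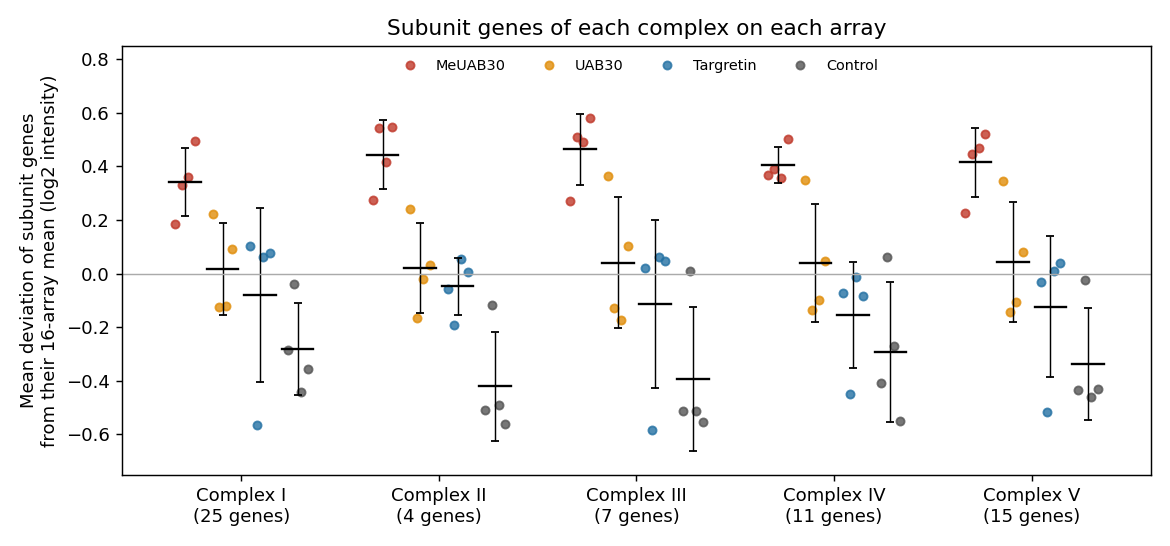
Mean deviation of the subunit genes of each complex from their 16-array mean on every array (log2 intensity), with the mean and SD of 4 arrays per diet. The 4 MeUAB30 points lie above the 4 Control points in every complex, and Targretin replicate 2 lies below the other Targretin points in all 5.

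The members moved together from array to array within a diet as well as between diets. Averaged over the 66 genes, the deviation from the 16-array mean was 0.23, 0.39, 0.38 and 0.52 on the MeUAB30 arrays, 0.29, -0.12, -0.13 and 0.08 on the UAB30 arrays, 0.03, -0.51, 0.04 and 0.04 on the Targretin arrays and -0.37, -0.01, -0.43 and -0.43 on the Control arrays. The lowest MeUAB30 array was below the highest UAB30 array and above all arrays of Targretin and Control. On Targretin replicate 2, 63 of 66 members lay below their diet's mean, and on Control replicate 2, 63 lay above it. On UAB30 replicate 1, 59 lay above. The arrays that stood apart from their diet thus did so over nearly all members at a time. Averaged over all genes tested, the deviation was -0.24 on Targretin replicate 2, 0.04 on Control replicate 2 and 0.08 on UAB30 replicate 1. Over the 3039 brightest genes it was -0.34, 0.08 and 0.13 on the same arrays. The part of such array-wide shifts in the members' readings was not tested.

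The intensity range of an array moved with the members' readings in part. The intensity range, taken as the 99th percentile over the median in log2 units, was 6.09 to 6.22 on MeUAB30 arrays, 6.08 to 6.19 on UAB30 arrays, 6.03 to 6.21 on Targretin arrays and 5.997 to 6.17 on Control arrays. Targretin replicate 2 (6.03) and Control replicate 3 (5.997) were the narrowest, and the 3039 brightest genes averaged -0.34 and -0.28 on them. With the narrowest array of each diet left out, 54 members were called higher with MeUAB30 and 0 lower, with a median change of 0.77. In that fit 12.3% of all genes were called higher and 7.79% lower. With the range as a covariate, 49 were called higher and 0 lower, and the median change was 0.60, against 0.04 over all genes, of which 11.6% were then called higher and 13.2% lower. The part of the intensity range in the members' differences was not tested further.

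**Figure D4:**
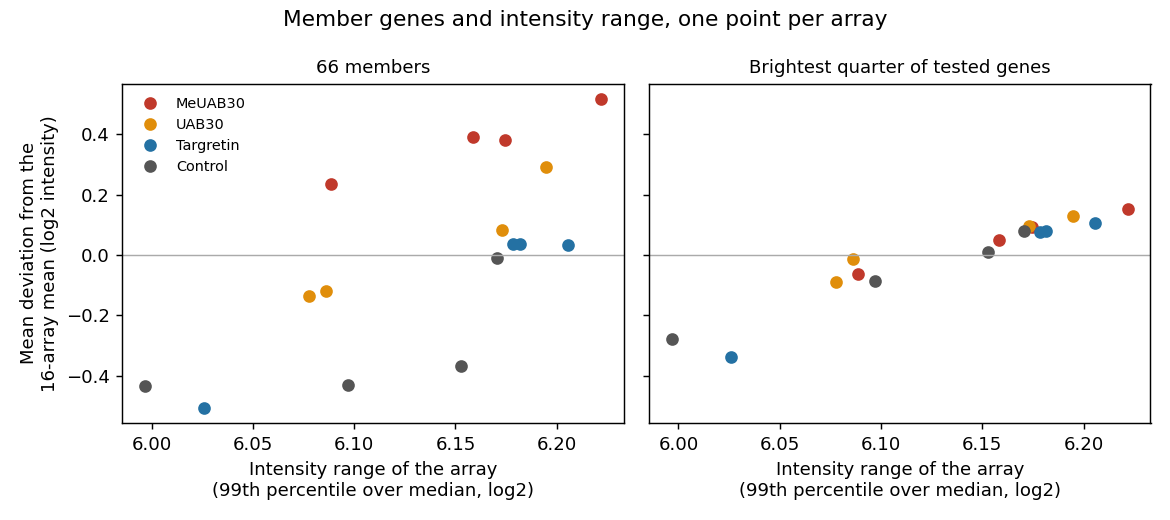
Mean deviation of the 66 members (left) and of the 3039 brightest tested genes (right) on each of the 16 arrays (log2 intensity) against the array's intensity range (99th percentile over median, log2). The MeUAB30 points lie from 0.23 to 0.52 on the left, and the Control points from -0.43 to -0.01, while on the right the MeUAB30 points lie from -0.06 to 0.15 and the Control points from -0.28 to 0.08.

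Other genes of the pathway were taken from 6 lists of genes that work beside the complexes. Of 17 regulators of mitochondrial biogenesis 16 were measured, and 0 rose and 0 fell in the 3 comparisons with Control. Of all genes, 7.88% rose and 2.01% fell with MeUAB30, 0.074% and 0.00823% with UAB30, and 1.51% and 0.666% with Targretin. Among 16 genes, shares of this size leave few or no calls to be found. Ppargc1a, the coactivator, read 6.19, 5.88, 6.09 and 6.51 with MeUAB30, against 7.37, 6.69, 6.99 and 7.08 with UAB30, and was lower by the test (log2 difference -0.86, SE 0.19, adjusted p = 0.0298). The groups did not overlap. Control arrays read 6.82, 6.28, 6.06 and 6.68, and the call was lost without MeUAB30 replicate 1, 2 or 3 or UAB30 replicate 1, 3 or 4 (adjusted p up to 0.114). It was the 1 call of the 16 genes in that comparison, where 0.691% of all genes were lower. The estimates there were 9 negative and 7 positive. Pprc1, from the same list, had the highest (0.37), with all MeUAB30 arrays above all UAB30 arrays, and did not pass. With Targretin 12 of the 16 were negative against Control, the lowest -0.47 for Pprc1, without overlap and without passing. Of the 16 estimates for MeUAB30 against Control, 9 were negative, and the lowest was that of Ppara, a nuclear receptor that pairs with RXR and drives fatty acid oxidation. Ppara read 7.31, 7.81, 7.70 and 8.04 with MeUAB30 and 9.16, 8.65, 9.06 and 8.87 with Targretin, against 8.78, 8.11, 7.82 and 8.46 in Control livers. Neither difference passed the test, at -0.58 with MeUAB30 (adjusted p = 0.0736) and 0.64 with Targretin (adjusted p = 0.121). Further MeUAB30 estimates were -0.06 for Nrf1 (adjusted p = 0.914), 0.10 for the estrogen-related receptor Esrra (adjusted p = 0.705) and 0.58 for the mitochondrial transcription factor Tfam (adjusted p = 0.101).

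Among assembly factors of complexes III and IV, 2 of 12 measured (24 listed) rose with MeUAB30 and 0 fell, where 7.88% of all genes and 17.4% of the 3039 brightest rose and 2.01% of all genes fell. Cox17, which delivers copper to complex IV, read 9.95, 10.09, 9.96 and 10.14 with MeUAB30, against 8.07, 9.12, 8.34 and 8.08 in Control livers. The groups did not overlap, with a change of 1.63 (3.10-fold, SE 0.23, adjusted p = 0.000243), larger than that of any member, and UAB30 arrays read 9.59, 8.85, 9.08 and 9.15. Surf1 rose by 0.76 (adjusted p = 0.0177), a call lost without MeUAB30 replicate 3 or 4 or Control replicate 4 (up to 0.0569). Of 13 measured genes for coenzyme Q and cytochrome c (16 listed), 6 rose with MeUAB30 and 0 fell, against 7.88% and 2.01% of all genes. All 6 make coenzyme Q, Coq9 (0.73), Coq6 (0.70), Coq4 (0.46), Coq5 (0.73), Coq7 (0.64) and Coq2 (0.53), and 3 of them, Coq2, Coq5 and Coq7, lost the call without 1 array or another, for a count of 3 without MeUAB30 replicate 3 or 4 or Control replicate 4 and 4 without MeUAB30 replicate 2. The Coq5 call was also lost with the 2 groups alone. Cytochrome c itself, Cycs, read 8.75 ± 0.23 with MeUAB30 and 7.86 ± 0.70 in Control livers (SD, n = 4 each, adjusted p = 0.0878).

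Of 10 measured genes for complex V assembly and ATP export (11 listed), 5 rose with MeUAB30 and 0 fell, against 7.88% and 2.01% of all genes. They were Atp5if1, the inhibitor protein of the ATP synthase (0.996, adjusted p = 0.00592), the phosphate carrier Slc25a3 (0.74), the adenine nucleotide carriers Slc25a4 (0.76) and Slc25a5 (0.51), and the outer membrane channel Vdac3 (0.93); Slc25a5 lost its call without Control replicate 4 (adjusted p = 0.0502). Of 16 measured genes of the citric acid cycle and pyruvate dehydrogenase (18 listed), which supply the NADH and succinate, 8 rose with MeUAB30 and 0 fell, against the same 7.88% and 2.01%. Pdhb, the beta subunit of pyruvate dehydrogenase, read 9.85, 10.15, 10.30 and 10.40 with MeUAB30, against 9.05, 9.28, 8.75 and 8.95 in Control livers, a change of 1.17 (SE 0.14, adjusted p = 8.47e-05). It was also higher with MeUAB30 than with UAB30 (0.77, adjusted p = 0.00791), for which the arrays read 9.57, 9.26, 9.38 and 9.42. Suclg1 (0.97), Pdhx (0.86) and Mdh2 (0.62) were among the others, and the count was 5 without MeUAB30 replicate 3 or Control replicate 4. Of 6 measured genes that feed electrons to coenzyme Q beside complexes I and II (8 listed), the flavoprotein genes Etfa (0.53) and Etfb (0.62) rose and 0 fell (7.88% and 2.01% of all genes), and neither call held without MeUAB30 replicate 3 or 4 or Control replicate 1 or 4. The Etfa call was also lost with the 2 groups alone and with the mean of probe sets.

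With UAB30, 0 genes of the 6 lists rose and 0 fell, against 0.074% and 0.00823% of all genes. With Targretin, 4 genes of the citric acid cycle list rose, the pyruvate dehydrogenase genes Dlat (1.27, adjusted p = 0.00125), Pdhb (0.85, adjusted p = 0.00211) and Pdha1 (0.59) and the isocitrate dehydrogenase Idh2 (0.63), against 1.51% of all genes. Dlat read 9.26, 9.40, 9.15 and 9.50 with Targretin, against 8.21, 8.23, 7.62 and 8.18 in Control livers. Gpd2, the mitochondrial glycerol 3-phosphate dehydrogenase, rose by 0.97 (adjusted p = 0.0103) and Slc25a5 by 0.53 (adjusted p = 0.0233). The calls of Idh2 and Slc25a5 were lost without Targretin replicate 1, 3 or 4 or Control replicate 3 or 4, and that of Slc25a5 also without Control replicate 1, with adjusted p up to 0.109 for Idh2 and 0.193 for Slc25a5. Both were also lost with the 2 groups alone, as was that of Pdha1 (adjusted p = 0.107).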

How the data were processed

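RNA of 16 rat liver samples (4 per diet) was measured on exon arrays. The labels call the molecule polyA RNA, whereas the extraction protocol gives total RNA. The deposited values are intensity values per probe set on a linear scale (medians of 22.2 to 23.8, minimum 2.19), with build rn4 named in the submitters' processing notes. How the authors corrected background, normalized and summarised them is not given in the sources used here. Of 887828 probe sets, 177688 (20.0%) were paired with 1 gene symbol in the platform table, 2920 with several and 707220 with none. Of 14903 symbols, 11393 were current and 3454 were updated through the RefSeq table of GRCr8, which was used for names and promoters only. Values were taken as log2(intensity + 1), a scale that understates changes of dim probe sets. Named probe sets with a mean at or above the 75th percentile (log2 6.01) were kept (103692), summarised per gene by median polish and tested with limma 3.58.1 in R 4.3.3 over all 16 arrays, with a mean per diet and Benjamini-Hochberg adjustment over 12156 genes. Comparisons were each diet against Control, MeUAB30 against UAB30, and a moderated F test over the 4 diets. The limma step was tested on simulated data with noise drawn independently for each gene and array. Shifts shared by many genes of an array, as seen here, were not part of that test. The number of arrays limits the precision, with a median SE of 0.17 on the log2 scale.

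The members and lists were chosen with earlier results of these data known. Named genes were, per comparison, up to 10 called members by adjusted p, the highest and lowest member of each complex, and isoform families. Other pathway and cell type genes are those of 6 and 8 lists. Alternatives were another pseudocount, other filters, quantile normalization, median centring, the mean of probe sets, the 2 groups alone, array weights, a replicate block and leaving out each array.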

Additional observations from a re-analysis of the deposited data

Results flagged for a closer look

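The values below lay apart from the other 3 arrays of their diet by Dixon's test at the 95% level. Of 168 groups of 4 arrays tested, 21 did (12.5%), where chance gives about 1 in 20, and the groups share arrays. No explanation was tested.

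Targretin replicate 2 read low in 11 of these. Averaged over the 66 members it stood at -0.51 from the 16-array mean, against 0.03 to 0.04 on the other Targretin arrays. By complex it stood at -0.56 for complex I, -0.58 for complex III, -0.45 for complex IV and -0.52 for complex V. Single genes were Sdhb at 9.93 (others 10.44 to 10.50), Uqcrh at 7.41 (others 8.77 to 8.98), Uqcrfs1 at 8.82 (others 9.21 to 9.29), Cox6a1 at 10.16 (others 10.94 to 11.02), Cox7a2 at 7.27 (others 8.29 to 8.44) and Atp5mc2 at 10.31 (others 10.58 to 10.63).

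Control replicate 2 read high in 6. Over all members it stood at -0.011, against -0.43 to -0.37 on the other Control arrays, and by complex at -0.12 for complex II, 0.011 for complex III and -0.023 for complex V. Sdhb read 10.29 (others 9.71 to 9.79) and Cyc1 9.38 (others 8.73 to 8.81).

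The remaining 4 were Cox6c on MeUAB30 replicate 4, at 11.19 (others 10.99 to 11.01), Ndufs5 on UAB30 replicate 1, at 8.14 (others 7.72 to 7.78), Atp5mc1 on UAB30 replicate 1, at 8.60 (others 8.32 to 8.37), and Cox6b2 on UAB30 replicate 3, at 6.06 (others 6.44 to 6.48).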

How the results depend on the processing

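For MeUAB30 against Control, 0 members were called lower under every alternative run. The 47 called higher became 48 with a pseudocount of 16 (47 of them shared), 44 of 71 with the filter at the 50th percentile, 40 of 72 with no filter, 48 after quantile normalization, 47 after median centring, 43 with the mean of probe sets, 47 with the 2 groups alone and 52 with array weights (46 shared). Leaving out 1 array gave 33 to 48, lowest without MeUAB30 replicate 4 or Control replicate 4, with a median log2 change of 0.69 to 0.81. Over all genes, 958 were called higher and 244 lower, against 1100 and 639 after centring, 1784 and 987 with array weights, and, in alternatives chosen after seeing the data, 1499 and 947 without the narrowest array of each diet, 1283 and 1073 without the narrowest pair, and 1414 and 1606 with a covariate for the arrays' intensity range.

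The counts of 0 elsewhere moved. For Targretin against Control, 3 members were higher after centring (2.54% of all genes under that setting), 14 with array weights (4.45%; 1 lower, 1.81%), 1 without the narrowest array of each diet (2.76%; 1 lower, 1.31%) and 3 with the range as a covariate (3.21%; 1 lower, 7.42%), and leaving out 1 array gave 0 to 3. For MeUAB30 against UAB30, 2 were higher after centring (1.45%), 28 with array weights (6.92%), 2 without the narrowest array of each diet (1.51%), 4 without the narrowest pair (1.83%) and 8 with the covariate (2.57%), and leaving out 1 array gave 0 to 2. For UAB30 against Control, 1 was higher with the covariate (0.436%), and leaving out 1 array gave 0 to 2. The test over 4 diets called 50 members with array weights, against 33, and 15 to 43 with 1 array left out. The cause was not tested. With the replicate number as a block, 42 members were higher with MeUAB30 than in Control livers and 0 lower. Arrays sharing a number correlated at -0.50 to 0.57 in their deviations (10 of 24 pairs over 0.1), and 5 of 16 correlated best with their own number, all 6 pairs of replicate 4 lying at 0.18 to 0.32. Whether the numbers pair the samples is not stated in the labels. With the block, Uqcrc2 and Atp5f1a with MeUAB30 and Idh2 and Slc25a5 with Targretin were not called. Of the single-gene values of named members under alternatives, 2723 kept direction and side of the threshold, 63 passed newly and 40 no longer passed. Another 54 changed direction, passing the threshold neither in the main fit nor under the alternative. With a pass in both fits, 0 changed direction.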
